A study of Homo sapiens with 4 samples.

Results

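The 40 genes described here encode nucleolar proteins and factors that build ribosomes. They were chosen by name with earlier results of these data known, so shares of all genes set beside them are a description only. All 40 have a row among the 33538 gene rows of the deposited matrix that carry plain symbols (called all-gene rows below). One of them, NPM1, also has a row among the 1253 rows marked as targeted (panel rows). The cells are MDA MB 134VI (MM134), an established line of invasive lobular breast carcinoma labelled WT. Hormone was withdrawn from all of them in phenol red-free medium with charcoal-stripped serum, after which one culture received the ethanol vehicle (0.01%) and the other 100 nM estradiol, each for 24 h. There is 1 transcript library per treatment, so no difference between treatments could be tested, no p-value is given, and each interval covers counting error only.

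Ribosomes are made in the nucleolus. RNA polymerase I transcribes a long precursor there, small nucleolar ribonucleoproteins (snoRNPs) modify it, and large assemblies cut and fold it into the small (40S) and large (60S) subunits while ribosomal proteins are added. Growing cells spend much of their transcription and energy on this pathway, and the transcription factor MYC, which binds the E-box sequence, is a known activator of many of its genes. Estradiol drives proliferation of many breast cancer cells that express the estrogen receptor, including lobular lines.

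A shared feature of the genes that does not come from the expression data is shown first, because it lies at nearly the same place in many of them. RefSeq promoter windows (GRCh38.p14, 250 bases before to 50 bases after an annotated start) were found for 35 of the 40 genes; BOP1, NOLC1, NOP58, RRP12 and RRS1 had no entry. The palindromic E-box CACGTG was present in at least 1 window of 18 of these 35 genes, 51.4%, against 13% of 8533 genes with a window and at least 50 UMIs in the all-gene rows and 8.77% of all 27305 genes with a window. Counted by window, it was in 18 of 42 windows of the 40 genes (42.9%) and in 7.26% of all 35116. In 16 of the 18 windows of the genes the motif began between 20 bases before and 40 bases after the start (88.9%), compared with 21% of all 2548 windows that hold it. It was 42.9% of 35 such windows of further ribosome biogenesis genes, and 50% of 4 windows each of cytosolic ribosomal protein genes and S-phase genes. The limits of this range lie close to the outermost sites of the 40 genes within it, at -16 (UTP4) and 35 (NOP2). The following 30-base stretches, written 5′ to 3′ on the strand of the gene with the E-box in capitals, are those of 8 of the 12 genes in which it begins within 16 bases of the start. They were picked to stand for both subunits and the snoRNPs, and MRTO4, NOP10, NOP14 and PES1 are not shown, and the number in each name is the distance of the first base of the motif from the annotated start.
GNL2 (3, chr1:37595917-37595946, minus strand): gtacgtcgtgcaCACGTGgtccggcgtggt
WDR43 (3, chr2:28894658-28894687, plus strand): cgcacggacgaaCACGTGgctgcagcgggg
RCL1 (4, chr9:4792936-4792965, plus strand): cctgttccaaacCACGTGgacgcgtctggg
FBL (6, chr19:39846356-39846385, minus strand): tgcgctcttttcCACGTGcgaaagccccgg
GNL3 (6, chr3:52686026-52686055, plus strand): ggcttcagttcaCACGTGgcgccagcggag
RRP9 (-5, chr3:51941892-51941921, minus strand): gggttcagctgcCACGTGagttctgcggcc
UTP20 (-10, chr12:101280083-101280112, plus strand): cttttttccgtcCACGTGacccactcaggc
UTP4 (-16, chr16:69132621-69132650, plus strand): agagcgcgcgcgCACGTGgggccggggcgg

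Other motifs were searched on both strands of the same windows. The TATA-box letters TATAAA were in 1 of the 35 genes (2.86%) and in 7.38% of the genes with a window and at least 50 UMIs. CCGGAAG, the core of the ETS factor motif, was in 12 of 35 (34.3%) against 24.7%. The full palindromic estrogen response element, with any 3 bases between its arms, was in 0 of the 35 and in 2 of the 8533 genes. No match says only that these letters are not in this window. The E-box was present in 4 of 63 cytosolic ribosomal protein genes with a window (6.35%) and in 33 of 136 further ribosome biogenesis genes (24.3%).

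The vehicle library held 4940 cells and 6918198 UMIs in all-gene rows, and the estradiol library 3367 cells and 5937422. Median UMIs per cell were 1199 and 1561, so the estradiol cells were deeper. By the authors' calls, S cells made up 15.6% of the vehicle library and 29.0% of the estradiol library, and G1 cells 50.5% and 34.5%. Luminal breast markers were present in both libraries, with ESR1 at 262 and 273 CPM (UMIs of the gene per 1000000 UMIs of the library), GATA3 at 970 and 858 CPM, KRT8 at 756 and 1359 CPM, and KRT18 at 727 and 927 CPM. CDH1, the E-cadherin gene, was near 10 CPM in both (10.1 and 10.3). FOXA1 (317 and 258 CPM) and EPCAM (359 and 311 CPM) were present at lower levels in the estradiol library, with log2 ratios of -0.30 and -0.21. Of the 7 immune or endothelial markers 5 had 0 UMIs, and CD14 and VWF had 1 UMI each. The basal markers KRT5, KRT14, TP63 and ACTA2 had 0 UMIs, and MYH11 was at 5.06 and 3.54 CPM. Mesenchymal markers were detected in part, with VIM at 158 and 119 CPM, FN1 at 34.3 and 31.2 CPM, COL1A1 at 26.0 and 21.1 CPM, and COL1A2 and PDGFRB at 0 UMIs. The part of these markers in the results was not tested.

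With estradiol, the ribosome biogenesis genes were higher. All 40 had at least 50 UMIs over both libraries, the minimum set for a ratio, and all 40 had a ratio of estradiol to vehicle above 1, while 45.6% of the 10977 genes at this minimum did. Their median log2 ratio was 0.44, and that of all genes at the minimum was -0.03. At least 1.5-fold higher were 10 of the 40 genes, against 3.82% of all genes, and 0 were at least 1.5-fold lower, against 6.67%. With equal weight to the authors' clusters, an alternative chosen after seeing the data, the count of 10 became 6, and without cluster 2 it became 3. The 95% interval lay wholly above 1 for 30 of 40 genes, against 16.2% of all genes, and wholly below 1 for 0, against 18.4%. Summed over the 40 genes, the level was 4244 CPM (95% Poisson interval 4196 to 4293) in vehicle cells and 5842 CPM in estradiol cells (5780 to 5904), 1.38-fold higher (1.36 to 1.40). NCL contributed most UMIs, and without it the remaining 39 genes summed to 3226 and 4263 CPM, 1.32-fold higher (1.298 to 1.346).

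**Figure D1:**
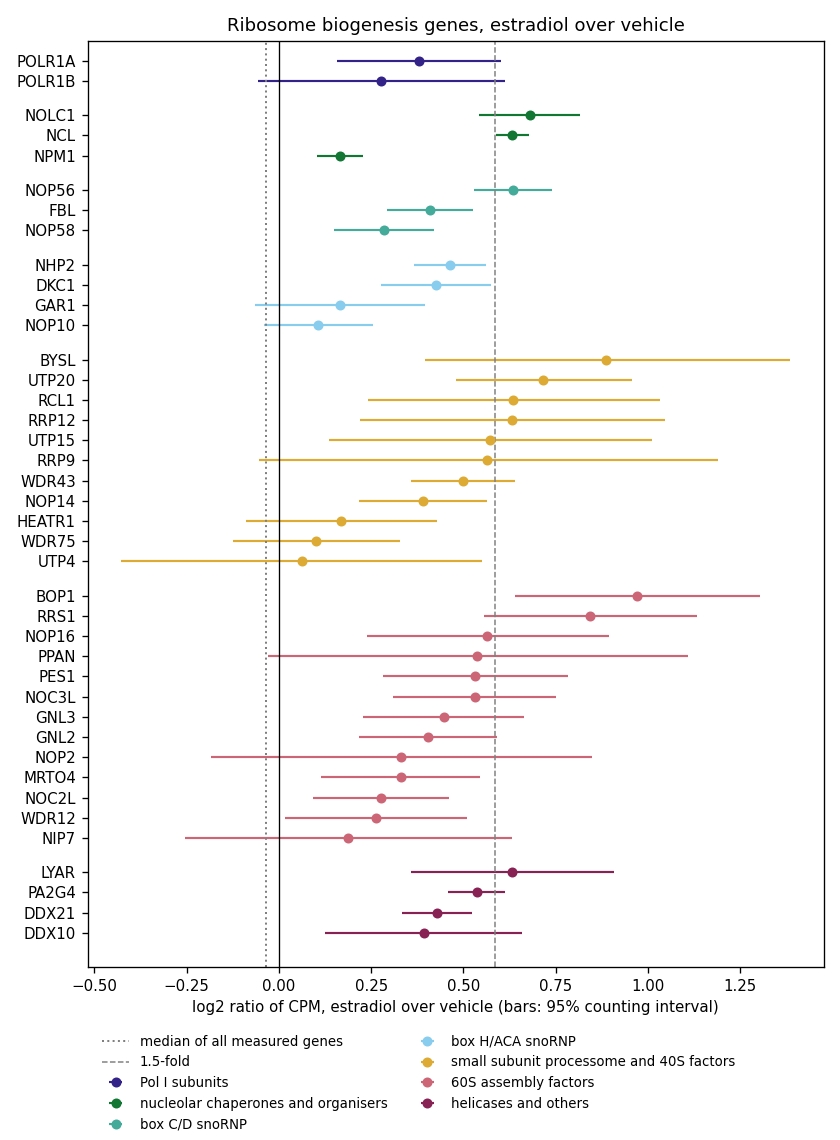
Log2 ratio of CPM, estradiol over vehicle, for each of the 40 genes in the all-gene rows, grouped and coloured by role; bars are 95% counting intervals, the dotted line is the median of all genes at the count minimum (-0.03) and the dashed line marks 1.5-fold. Every point lies to the right of 0, from 0.06 (UTP4) to 0.97 (BOP1), and 10 intervals reach below 0.

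The genes differed among themselves by more than counting error, as all genes did. Among all genes, whose median log2 ratio was -0.03, 16.2% of intervals lay wholly above 1 and 18.4% wholly below it. Intervals of 7 genes lay wholly above the median of the 40 (NCL, PA2G4, NOP56, NOLC1, UTP20, RRS1 and BOP1), those of 6 wholly below it (NPM1, NOP58, NOP10, WDR75, GAR1 and HEATR1), and 27 included it. The median log2 ratio was 0.45 among the 10 genes with most vehicle UMIs and 0.57 among the 10 with fewest, with median half-widths of the interval of 0.10 and 0.47. The 10 genes whose interval included a ratio of 1 were NOP10, WDR75, GAR1, HEATR1, POLR1B, NIP7, UTP4, NOP2, PPAN and RRP9.

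RNA polymerase I makes the ribosomal RNA precursor. POLR1A, its largest subunit gene, was at 46.0 CPM (41.1 to 51.3) in vehicle cells and at 59.8 CPM in estradiol cells (53.7 to 66.3), which gave a log2 ratio of 0.38 (0.16 to 0.60). It was 0.13 with cells thinned to 800 UMIs. POLR1B, the second largest subunit gene, was at 21.4 and 25.9 CPM, and its log2 ratio of 0.28 had an interval that included 0 (-0.06 to 0.61).

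The nucleolar chaperone genes had unequal ratios. NCL encodes nucleolin, a major nucleolar RNA-binding protein (chromosome 2, 231453531 to 231464484). It was at 1018 CPM (995 to 1042) in vehicle cells and at 1578 CPM in estradiol cells (1547 to 1611), 1.55-fold higher (1.503 to 1.599). NOLC1, which encodes the snoRNP chaperone Nopp140 (chromosome 10, 102152389 to 102163870), was at 109.6 and 175 CPM, 1.60-fold higher (1.46 to 1.76), or 0.68 on the log2 scale, which became 0.33 with equal weight to the authors' clusters. NPM1, which encodes nucleophosmin, a histone and ribosome chaperone (chromosome 5, 171387116 to 171410900), was at 623 CPM (604 to 642) and 699 CPM (678 to 720), 1.12-fold higher (1.07 to 1.17). The NPM1 interval did not reach those of NCL or NOLC1. NPM1 has processed pseudogenes of near-identical sequence, so part of its UMIs may have been assigned elsewhere or dropped.

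Box C/D snoRNPs guide 2′-O-methylation of ribosomal RNA. Their scaffold protein gene NOP56 was at 182 CPM (172 to 192) in vehicle cells and at 282 CPM in estradiol cells (269 to 296), 1.55-fold higher (1.44 to 1.67). FBL, which encodes the methyltransferase fibrillarin, was at 163 and 216 CPM, 1.33-fold higher (1.23 to 1.44), or 0.41 on the log2 scale, which became 0.20 with equal weight to clusters. NOP58, the scaffold partner of NOP56, was at 128 and 156 CPM, 1.22-fold higher (1.11 to 1.34). The intervals of NOP56 and NOP58, which sit in the same particle, did not overlap.

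Box H/ACA snoRNPs guide pseudouridylation, and 2 of the 4 core protein genes had intervals above 1, against 16.2% of all genes. DKC1, the pseudouridine synthase dyskerin, stood at 101 and 136 CPM, for a log2 ratio of 0.43 (0.28 to 0.57). NHP2 stood at 225 and 309.9 CPM, for 0.46 (0.37 to 0.56). GAR1 was at 46.0 CPM in vehicle cells and at 51.5 CPM in estradiol cells, with a log2 ratio of 0.17 (-0.07 to 0.40). NOP10 was at 115 and 123 CPM, with a log2 ratio of 0.11 (-0.04 to 0.25). The interval of NOP10 lay below those of DKC1 and NHP2, while that of GAR1 overlapped both.

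The small subunit processome folds and cuts the 5′ part of the precursor, and 11 genes of this branch and of 40S maturation were listed. All 11 had ratios above 1 (45.6% of all genes), 4 were at least 1.5-fold higher (3.82%) and 7 had intervals above 1 (16.2%). UTP20, a large helical scaffold (chromosome 12, 101280105 to 101386618), was at 36.3 CPM (31.9 to 41.1) and 59.6 CPM (53.6 to 66.2), 1.64-fold higher (1.39 to 1.94). BYSL, which encodes bystin, a late 40S factor (chromosome 6, 41908759 to 41933046), was at 8.38 and 15.5 CPM on 58 and 92 UMIs, 1.85-fold higher (1.32 to 2.61). RCL1 and RRP12, the latter a factor of pre-40S export, were at log2 ratios of 0.64 (0.24 to 1.03) and 0.63 (0.22 to 1.05). WDR43 was at 109.1 and 154 CPM, with a log2 ratio of 0.50 (0.36 to 0.64), and NOP14 was at 0.39 (0.22 to 0.56), or 0.11 with equal weight to clusters. Reads of NOP14 and its antisense row NOP14-AS1 (159 UMIs over both libraries) cannot be told apart if the counting ignored strand, and its strand setting is unknown here.

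Within the subcomplex known as t-UTP, which links the processome to transcription, the values differed. UTP15 was at a log2 ratio of 0.57 (0.13 to 1.01) and WDR43 at 0.50. HEATR1 was at 36.9 and 41.4 CPM, with a log2 ratio of 0.17 (-0.09 to 0.43), WDR75 at 49.0 and 52.5 CPM, with 0.10 (-0.13 to 0.33), and UTP4 at 11.1 and 11.6 CPM, with 0.06 (-0.43 to 0.55). RRP9, the U3 snoRNP protein gene, had the fewest UMIs of the 40 (41 and 52) and a log2 ratio of 0.56 whose interval included 0 (-0.06 to 1.19).

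Among the 13 genes for 60S assembly, 13 had ratios above 1 (45.6% of all genes), 2 were at least 1.5-fold higher (3.82%) and 10 had intervals above 1 (16.2%). BOP1 (chromosome 8, 144262045 to 144291438) had the highest ratio of all 40, at 17.6 CPM (14.6 to 21.1) in vehicle cells and at 34.5 CPM in estradiol cells (29.96 to 39.59), 1.96-fold higher (1.56 to 2.47), and it was number 99 of 10977 genes by ratio. Its product works in the PeBoW complex with those of PES1 and WDR12. PES1 was at 34.8 and 50.4 CPM, 1.45-fold higher (1.22 to 1.72), and WDR12 at 39.2 and 47.0 CPM, with a log2 ratio of 0.26 (0.02 to 0.51). The BOP1 interval lay above that of WDR12 and overlapped that of PES1. RRS1, a factor that recruits the 5S particle and also lies on chromosome 8 (66429014 to 66430733), was at 24.1 and 43.3 CPM, 1.79-fold higher (1.47 to 2.19).

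The remaining 60S factors lay closer together. The log2 ratio was 0.56 for NOP16 (0.24 to 0.89), 0.53 for NOC3L (0.31 to 0.75), 0.45 for the nucleostemin gene GNL3 (0.23 to 0.67; 0.14 with thinned cells) and 0.40 for its relative GNL2 (0.22 to 0.59). It was 0.33 for MRTO4 (0.11 to 0.55) and 0.28 for NOC2L (0.09 to 0.46). Fewer UMIs lay behind PPAN, at 0.54 (-0.03 to 1.11), NOP2, a ribosomal RNA methyltransferase gene, at 0.33 (-0.19 to 0.85), and NIP7, at 0.19 (-0.26 to 0.63). NIP7 turned below 0 with equal weight to phases (-0.01), with equal weight to clusters (-0.04) and with cells thinned to 800 UMIs (-0.25). PPAN was at -0.01 with equal weight to clusters other than cluster 2, where NIP7 was at -0.17. NOP2 turned with equal weight to clusters (-0.16) and UTP4 with thinned cells (-0.01).

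Of the 4 other genes, PA2G4, which encodes the growth-associated protein EBP1, was at 360 CPM (346 to 374) in vehicle cells and at 521 CPM in estradiol cells (503 to 540), 1.45-fold higher (1.37 to 1.53). DDX21, a nucleolar RNA helicase gene, was at 239 and 322 CPM, 1.35-fold higher (1.26 to 1.44). DDX10, another helicase gene, was at 32.1 and 42.1 CPM, 1.31-fold higher (1.09 to 1.58). LYAR, which encodes a nucleolar zinc finger protein, was at 28.0 and 43.5 CPM, 1.55-fold higher (1.28 to 1.88).

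NPM1 was counted more deeply in the panel rows, on 94556 UMIs with vehicle and 78185 with estradiol. Its level there was 6715 CPM (6672 to 6758) and 7552 CPM (7499 to 7605), 1.12-fold higher (1.11 to 1.14), where 36.7% of 940 panel genes at the count minimum had a ratio above 1 and their median log2 ratio was -0.11. The panel rows count the cells of the all-gene rows again, which makes this a more exact count and no second measurement of the treatment. The log2 ratio of NPM1 in the panel was 0.17 against the library total, 0.28 when scaled by median of ratios and 0.23 without the 10 most abundant panel genes in the total. By phase it was 0.03 in G1 cells (0.01 to 0.06), 0.20 in S cells (0.17 to 0.23) and 0.24 in G2M cells (0.22 to 0.27). Scaled by median of ratios, these panel values were 0.13, 0.29 and 0.36. In the all-gene rows they were 0.12 (0.02 to 0.22), 0.30 (0.17 to 0.44) and 0.12 (0.02 to 0.23), a different order of phases.

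The balance of NCL to NPM1, which does not depend on the library total, was 1.63 NCL UMIs per NPM1 UMI with vehicle (1.57 to 1.70) and 2.26 with estradiol (2.18 to 2.34). It was 1.35 and 1.93 in G1 cells, 2.17 and 2.40 in S cells, and 1.78 and 2.45 in G2M cells, vehicle first. The intervals of the libraries overlapped in S cells only, where vehicle was at 1.98 to 2.38 and estradiol at 2.25 to 2.56.

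**Figure D2:**
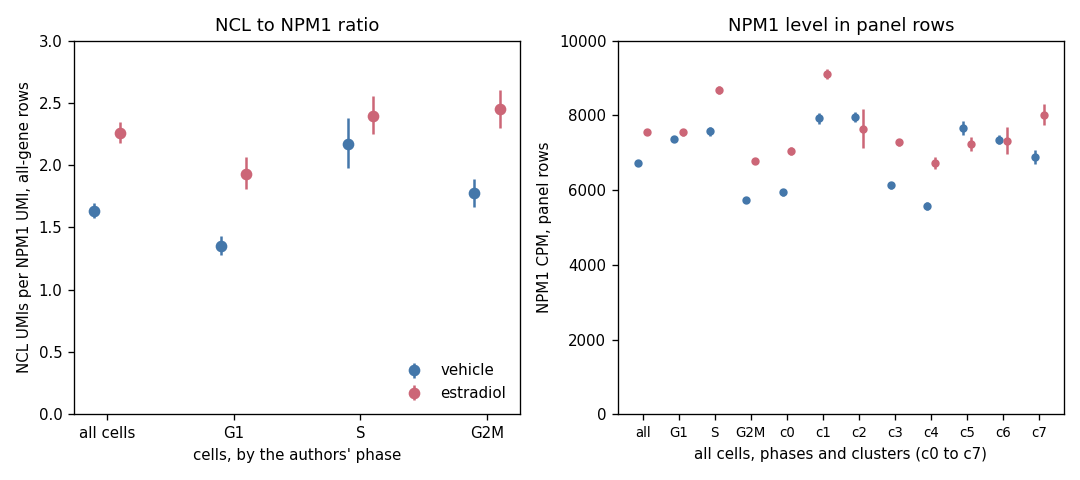
Left, NCL UMIs per NPM1 UMI in the all-gene rows by phase and library; right, NPM1 CPM in the panel rows in all cells, by phase and by cluster (c0 to c7); bars are 95% counting intervals. The NCL to NPM1 ratio is higher with estradiol in G1 and G2M cells, and the NPM1 level in clusters 2, 5 and 6 is not higher with estradiol, though clusters 2 and 6 turn to log2 ratios of 0.07 and 0.12 when scaled by median of ratios.

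Because more estradiol cells were in S, the treatments were also set side by side within each phase. The phase calls rest on expression in the same cells. Within G1 cells the 40 genes summed to 4080 CPM (4008 to 4153) in vehicle cells and 5512 CPM in estradiol cells (5406 to 5620), 1.35-fold higher (1.32 to 1.39). In S cells the sums were 5137 CPM (5002 to 5276) and 6610.3 CPM (6487 to 6735), 1.29-fold higher (1.25 to 1.33), and in G2M cells 4085 CPM (4011 to 4159) and 5565 CPM (5471 to 5660), 1.36-fold higher (1.33 to 1.40). Estradiol G1 cells thus had a higher sum than vehicle S cells. With equal weight to the 3 phases the summed log2 ratio was 0.41, and with library totals alone it was 0.46.

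Gene by gene, 33 of the 40 had a ratio above 1 in all 3 phases, against 21.2% of all genes at the count minimum. The 7 exceptions were NOP2, GAR1, WDR75, UTP4, POLR1B, NIP7 and HEATR1. Of the genes with at least 50 UMIs in the phase, 33 of 37 were above 1 in G1 (background 49.1%), 31 of 33 in S (50.7%) and 38 of 38 in G2M (44.8%). At least 1.5-fold higher were 10 in G1 (6%), 7 in S (4.72%) and 11 in G2M (3.84%). Medians of their log2 ratios were 0.48, 0.40 and 0.47.

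NCL was at 929, 1397 and 971 CPM in G1, S and G2M cells with vehicle and at 1441, 1906 and 1459 CPM in estradiol cells. Its log2 ratio was 0.63 in G1 (0.56 to 0.71), 0.45 in S (0.36 to 0.54) and 0.59 in G2M (0.52 to 0.66). PA2G4 had log2 ratios of 0.50, 0.40 and 0.50 and NOLC1 of 0.68, 0.50 and 0.61, with all 6 intervals above 0. NOP56 was at 0.64 (0.45 to 0.83) in G1 and 0.73 (0.57 to 0.90) in G2M but 0.20 (-0.01 to 0.41) in S. Its vehicle level was 276 CPM in S and 156 CPM in G1. The GNL3 ratio was 0.70 in G1 (0.36 to 1.05), and in S it was 0.08 (-0.36 to 0.53). GAR1 was at -0.31 in G1 (-0.75 to 0.13) and 0.48 in G2M (0.15 to 0.81). No difference between phases was tested.

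Other groups of genes, the 79 cytosolic ribosomal protein genes and 42 S-phase genes, were set beside them. The ribosomal protein genes, whose products the biogenesis factors assemble, summed to 126631 CPM in vehicle cells and 127798 CPM in estradiol cells. The summed log2 ratio was 0.01, and 0 of 79 were at least 1.5-fold higher or lower, against 3.82% and 6.67% of all genes. Their log2 ratio was -0.01 in G1 cells, 0.03 in S cells and 0.09 in G2M cells. The S-phase genes had a summed log2 ratio of 0.42 (0.39 to 0.44) in all cells, close to the 0.46 (0.44 to 0.48) of the biogenesis genes. In G1 cells they were at 0.41 (0.35 to 0.47) and the biogenesis genes at 0.43 (0.40 to 0.47), intervals that overlap. In S cells they were at -0.06 (-0.10 to -0.02) and the biogenesis genes at 0.36 (0.32 to 0.41), and in G2M cells at 0.22 (0.18 to 0.26) and 0.45 (0.41 to 0.48). The authors' phase calls may share genes with the S-phase list. If so, the calls themselves would limit the difference of that list within S cells, and the values there cannot set the lists apart.

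**Figure D3:**
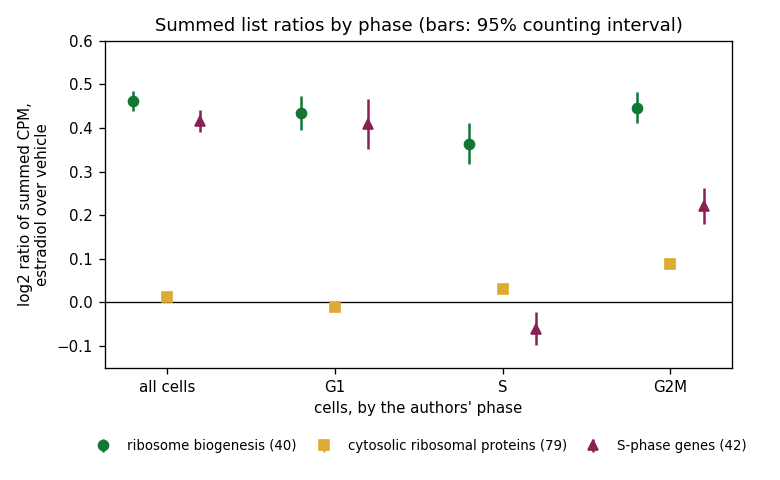
Log2 ratio of summed CPM, estradiol over vehicle, in all cells and within each phase for the 40 ribosome biogenesis genes, 79 cytosolic ribosomal protein genes and 42 S-phase genes; bars are 95% counting intervals. The biogenesis genes lie between 0.36 and 0.46 in every column, the ribosomal protein genes between -0.01 and 0.09, and the S-phase genes are at 0.42 in all cells and -0.06 within S cells.

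Across phases of one library, the summed level was highest in S cells, 5137 CPM against 4080 in G1 and 4085 in G2M with vehicle, and 6610.3 against 5512 and 5565 with estradiol. Single genes did not all follow the sum. In the vehicle library 12 of the 35 genes with at least 50 UMIs had an S to G1 interval above 1 (background 13.1%) and 0 below (10.6%), and in the estradiol library 12 of 36 (12.8%) and 0 (9.98%). Medians of the log2 ratio of S to G1 were 0.13 and 0.19 over these genes, and 0.41 over the 16 and 0.34 over the 19 genes with at least 200 UMIs. NOP56 was 0.82 higher on the log2 scale in S than in G1 with vehicle (0.61 to 1.03) and 0.38 with estradiol (0.19 to 0.56). NCL was higher by 0.59 (0.50 to 0.68) and 0.40 (0.33 to 0.48), PA2G4 by 0.56 and 0.46, FBL by 0.41 and 0.56, and NOLC1 by 0.60 and 0.43.

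Between G2M and G1 cells the median log2 ratio was -0.02 for vehicle and -0.00 for estradiol. Intervals lay above 1 for 5 of 37 genes (background 16.3%) and below 1 for 3 (14.2%) with vehicle, and for 9 of 38 (13.2%) and 3 (12.8%) with estradiol. LYAR was higher in G2M, by 0.71 with vehicle (0.24 to 1.19) and 0.83 with estradiol (0.36 to 1.31), and so were FBL, by 0.34 and 0.38, and DKC1, by 0.55 and 0.27. NPM1 was lower in G2M in both libraries, with log2 ratios of -0.33 (-0.43 to -0.23) and -0.32 (-0.43 to -0.22). RRP12 (-1.01) and RCL1 (-0.79) had G2M to G1 intervals below 1 with vehicle, and GNL3 (-0.66) and RRS1 (-0.44) with estradiol. GAR1 was at 36.1 CPM in G1 and 70.0 CPM in G2M with estradiol, a log2 ratio of 0.95 (0.54 to 1.39), and at 44.6 and 50.1 CPM in vehicle cells, 0.17.

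In each of the authors' 8 clusters, which may have been made from expression of these cells, the summed level was higher with estradiol. Cluster 1, in which 419 of 600 vehicle and 545 of 904 estradiol cells were S cells, had the highest sum in both libraries, 5264 CPM (5095 to 5438) in vehicle cells and 6617 CPM in estradiol cells (6469 to 6767), 1.26-fold higher (1.21 to 1.31). Cluster 2 had the lowest, 3872 CPM (3743 to 4005) and 4796 CPM (4268 to 5372), 1.24-fold higher (1.10 to 1.39). In it 1078 of 1150 vehicle and 70 of 82 estradiol cells were G1 cells, and its estradiol sum rests on 299 UMIs. By single genes, 11 were highest in cluster 1 and 3 in cluster 2 with vehicle, and 8 and 9 with estradiol. Lowest in cluster 2 were 11 genes with vehicle and 13 with estradiol. The largest difference was in cluster 3, the cluster with most UMIs per cell (medians 2785 and 2769.5), at 4144 and 5934 CPM, 1.43-fold higher (1.39 to 1.48). The smallest was in cluster 5, at 4101 and 4910 CPM, 1.197-fold higher (1.13 to 1.27). Clusters 0, 4, 6 and 7 were 1.35-fold, 1.28-fold, 1.25-fold and 1.23-fold higher. At least 1.5-fold higher were 10 of 31 genes with 50 UMIs in cluster 0 (background 4.4%), 8 of 31 in cluster 1 (5.36%), 3 of 14 in cluster 2 (13.2%) and 8 of 33 in cluster 3 (5.26%). The counts were 4 of 27 in cluster 4 (4.62%), 2 of 16 in cluster 5 (6.54%), 2 of 19 in cluster 6 (8.69%) and 2 of 13 in cluster 7 (6.08%).

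**Figure D4:**
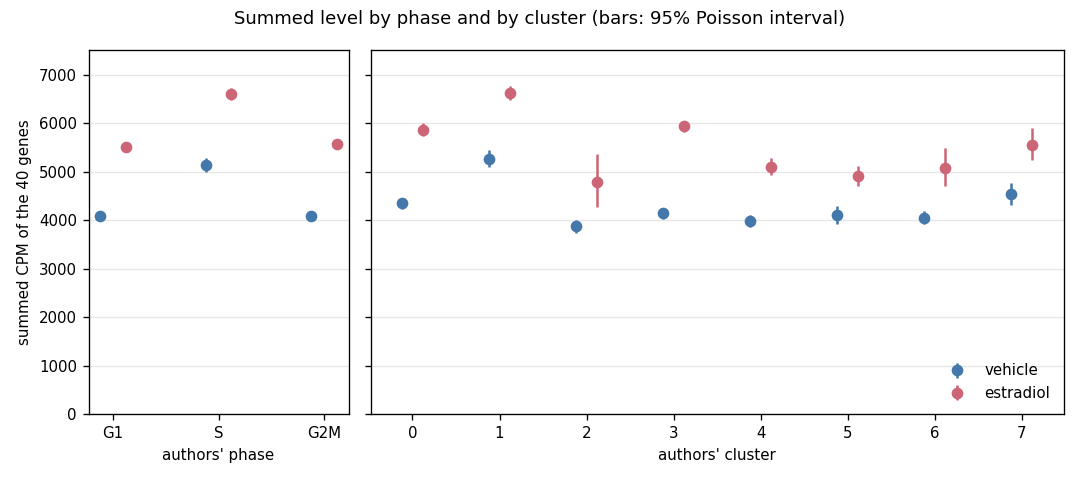
Summed CPM of the 40 genes in the all-gene rows by the authors' phase (left) and cluster (right) in each library; bars are 95% Poisson intervals. The estradiol point lies above the vehicle point in all 3 phases and all 8 clusters, and cluster 1 is highest in both libraries.

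The fold between whole libraries (1.38) exceeded that within 7 of the 8 clusters. The libraries filled the clusters differently, with 1150 of 4940 vehicle cells and 82 of 3367 estradiol cells in cluster 2, and 600 and 904 in cluster 1. With equal weight to clusters the summed log2 ratio was 0.36, and 6 of 40 genes were at least 1.5-fold higher, against 4.46% of all genes under the same weighting. Of the 10 genes at least 1.5-fold higher between whole libraries, BOP1 (0.74), RRP12 (1.01), RRS1 (1.11) and UTP20 (0.80) were so with this weighting too. In cluster 2, which has an equal share here, BOP1, RRP12, RRS1 and UTP20 rest on 3, 4, 6 and 8 estradiol UMIs. NCL (0.48), NOP56 (0.48), NOLC1 (0.33), BYSL (0.57), RCL1 (0.52) and LYAR (0.54) were below 1.5-fold. Without cluster 2 the sum stayed at 0.36 and 3 genes were at least 1.5-fold higher, RRS1 (0.95), UTP15 (0.65) and RRP12 (0.60), against 3.87% of all genes. BOP1 (0.57) and UTP20 (0.55) were then below 1.5-fold. UTP15 and RRP12 also rest on few UMIs, with 3 estradiol UMIs each in cluster 6 and 4 vehicle UMIs each in cluster 7. Within G1 cells of single clusters the log2 ratio ran from 0.23 (0.14 to 0.32) in cluster 5 to 0.46 (0.38 to 0.53) in cluster 3, over the 6 clusters with at least 50 such cells in each library. Ratios above 1 in all 8 clusters were found for 8 genes, NCL, NOP56, NHP2, GNL3, RRP12, RRS1, DDX21 and PA2G4, or 20% of the 40, against 2.87% of all genes at the count minimum. NCL was at 1426 CPM in cluster 1 and 841 CPM in cluster 4 with vehicle, and at 1906 CPM in cluster 1 and 1043 CPM in cluster 2 with estradiol.

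At equal depth the number of UMIs per cell was also higher with estradiol. Each cell with at least 800 UMIs was thinned to 800, which left 3989 of 4940 vehicle cells and 3228 of 3367 estradiol cells. The mean number of UMIs of the 40 genes per thinned cell was 3.45 with vehicle and 4.68 with estradiol. The median was 3 and 4, the lower quartile 2 and 3, and the upper quartile 5 and 6. With so few UMIs per cell, these counts cannot tell a difference in all cells from one in part of them. Thinning also left out a larger share of the vehicle cells. Without thinning the summed levels were 4244 and 5842 CPM, as above. Means were 3.34, 4.11 and 3.28 in G1, S and G2M vehicle cells and 4.49, 5.26 and 4.40 in the estradiol cells.

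**Figure D5:**
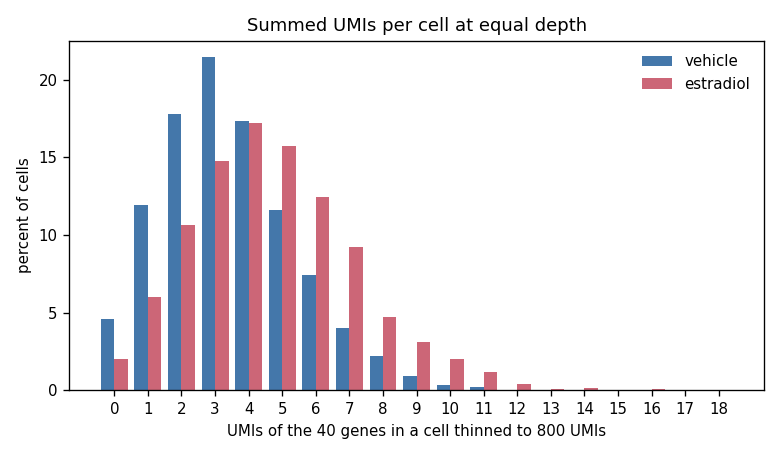
Percent of cells by the number of UMIs of the 40 genes in a cell thinned to 800 UMIs, for 3989 vehicle and 3228 estradiol cells. The estradiol bars are shifted to higher numbers across the range, with a median of 4 UMIs against 3.

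The wider pathway had the same direction with smaller ratios. Of 159 further ribosome biogenesis genes with at least 50 UMIs, 122 had ratios above 1 (background 45.6%), 68 had intervals above 1 (16.2%) and 11 below 1 (18.4%), and 8 were at least 1.5-fold higher (3.82%). Their median log2 ratio was 0.20. By branch the medians were 0.25 over 57 genes of 60S assembly and export, 0.19 over 48 of the small subunit branch, 0.14 over 16 of Pol I transcription and 0.13 over 38 for nucleases and modification. CD3EAP, a Pol I subunit gene, was at 35.3 and 68.0 CPM, 1.93-fold higher (log2 ratio 0.95, 0.72 to 1.18), and POLR1E, its partner in the subunit pair, was 1.70-fold higher on 106 and 155 UMIs. POLR2E and POLR2L, subunits shared with other polymerases, were at log2 ratios of 0.37 and 0.33.

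In the small subunit branch TCOF1, which encodes treacle and acts in ribosomal DNA transcription, was at 66.3 and 106.8 CPM, 1.61-fold higher. NOL6 was 1.61-fold higher on 34 and 47 UMIs, NOP9 was at a log2 ratio of 0.53, and DIMT1, a ribosomal RNA methyltransferase gene, was at -0.52 (-1.10 to 0.04). CCDC86 (0.88), NOL12 (0.60), the NPM1 relative NPM3 (0.59) and the helicase gene DDX54 (0.58) led the 60S list. The exosome gene EXOSC2 (0.62), POP1 (0.50), RUVBL1 (0.44) and EXOSC5 (0.41) led the nucleases and modification list.

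Among 22 regulators of ribosome synthesis the median log2 ratio was 0.05. At least 1.5-fold higher was 1 gene (3.82% of all genes), and 1 was at least 1.5-fold lower (6.67%). MYC was at 37.0 and 52.2 CPM in the all-gene rows, 1.41-fold higher (log2 ratio 0.50, 0.25 to 0.74), and at 169.9 and 271 CPM in the panel rows, 1.60-fold higher (1.51 to 1.69). MXD4, which encodes a repressor that competes with MYC for its partner MAX, was lower, at 77.0 and 50.02 CPM (log2 ratio -0.62, -0.83 to -0.42). EIF4EBP1, which encodes an inhibitor of cap-dependent translation downstream of mTOR, was at 278 and 419 CPM, 1.503-fold higher, and KDM2B was at a log2 ratio of 0.50 (0.01 to 1.00). The median log2 ratio was 0.44 for the 18 of the 40 genes with an E-box (0.06 to 0.89) and 0.39 for the 17 with a window that lacks it (0.10 to 0.63). At least 1.5-fold higher were 4 of the 18, 2 of the 17 and 4 of the 5 genes with no window. Over all genes at the count minimum, it was 4.34% of 1107 with an E-box and 3.27% of 7426 with a window that lacks it. Their median log2 ratios were 0.005 and -0.04. A difference in ratio by E-box was not tested.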

How the data were processed

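Transcripts were measured in single MM134 cells, with 1 library for each treatment. The authors deposited 1 matrix of natural log values with a column per cell, and an annotation with counts of UMIs per cell, the mitochondrial percent, clusters and phases. Per the submitters' processing notes, the tools were UMI-tools 0.5.3, SAMtools, Bowtie2 2.3.2, cutadapt 1.8.3 and Cell Ranger 3.0.2, whose roles are not stated. The sources used here do not say how the all-gene rows were sequenced. Each value was turned back into a UMI count (a deposited value is ln(1 + 10000 x count / total), with the total that of the cell in its block). Whole numbers, to a tolerance of 1e-06, resulted for 100% of non-zero values, and in 100% of cells their sum equalled the deposited total.

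For each library, phase or cluster, the UMIs of its cells were added up per gene and divided by the total (CPM). CPM has exact Poisson and ratios exact Clopper-Pearson 95% intervals, conditional on the sum of both counts; these treat UMIs as independent and leave out variation between cells and cultures. A gene needed 50 UMIs over both sides. No cell was left out and no doublet caller was run; 4 barcodes occur in both libraries. The code was tested on simulated data. Python 3.11.15, NumPy 2.4.6, SciPy 1.17.1 and pandas 2.3.3 were used. All 40 genes are named, plus up to 4 genes of each further list by size of ratio; members, lists and motifs were chosen with earlier results of these data known. Coordinates and sequences are from RefSeq (GRCh38.p14); the files' build is hg38, per the submitters' processing notes.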

Additional observations from a re-analysis of the deposited data

Results flagged for a closer look

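NPM1 in the panel rows was at opposite sides of a ratio of 1 in different clusters. In cluster 5 its log2 ratio of estradiol to vehicle was -0.08 (-0.13 to -0.03), from 7660.1 CPM (vehicle) and 7223 CPM (estradiol), and in cluster 4 it was 0.27 (0.23 to 0.31), at 5568 and 6720.4 CPM. In cluster 5 the value was -0.07 when scaled by median of ratios and -0.06 without the 10 most abundant panel genes in the total. The difference between clusters was not tested, since there is 1 library per treatment. In the all-gene rows, on 303 and 352 UMIs, cluster 5 was at 0.13 (-0.10 to 0.36), and cluster 4, on 567 and 358 UMIs, at 0.08 (-0.11 to 0.28). The order of the clusters is thus the opposite there, with intervals that overlap.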

How the results depend on the processing

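No paired analysis was possible because there is 1 library per treatment, so no replicate could be left out either. The libraries differ in depth and in phase and cluster makeup, and how much of each difference belongs to the treatment cannot be told apart from differences between the cultures. Of 143 values recomputed under other settings for the main counts, medians and sums, 133 stayed close and 0 reversed. Close means within 1.5 times for counts, within 1.5 times or 0.1 for medians on the log2 scale, and within the counting interval for sums. Reversed means a change of sign, which counts could not show and which was not called for medians within 0.1 of 0. The G2M to G1 medians were of that kind and ran from -0.09 to 0.0003 with vehicle and from -0.08 to 0.02 with estradiol. The median log2 ratio of the 40 genes ran from 0.36 to 0.47 and the number at least 1.5-fold higher from 3 to 13. Equal weight to clusters gave 6 such genes against 10, and 3 without cluster 2. The summed log2 ratio of 0.46 became 0.50 when scaled by median of ratios, 0.41 with equal weight to phases and 0.36 with equal weight to clusters, with or without cluster 2. In the wider lists 8 genes at least 1.5-fold higher became 13 with thinned cells and 5 at a minimum of 200 UMIs. At that minimum the median S to G1 ratio was 0.41 against 0.13 with vehicle and 0.34 against 0.19 with estradiol, over fewer genes.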
